A study of Mus musculus with 16 samples.

Results

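The genes for 9 neuropeptide precursors were followed through cocultures of sympathetic ganglia and pancreatic stellate cells (PSCs). They were cholecystokinin (Cck), proenkephalin (Penk), somatostatin (Sst), tachykinin 1 (Tac1), vasoactive intestinal peptide (Vip), pituitary adenylate cyclase-activating polypeptide (Adcyap1), neurotensin (Nts), calcitonin and calcitonin gene-related peptide (Calca) and gastrin-releasing peptide (Grp). Each was taken by its gene name, and all 9 were found among the 21684 protein-coding genes of the 56941 genes listed. Bulk RNA-seq was available for mPSC1 cells, 1 immortalized line of mouse PSCs, cultured alone (PSC, n = 3 libraries) or with superior cervical ganglion (SCG) explants (PSC+SCG, n = 3). The ganglia themselves were sequenced after culture by themselves (SCG, n = 3), beside NIH 3T3 fibroblasts (SCG+MEF, n = 3) or beside mPSC1 cells (SCG+PSC, n = 4). The ganglia came from wild-type C57BL/6J pups of postnatal day 1 to 4, and 8 to 13 explants were pooled in a well. In cocultures 10000 cells grew on an insert above the explants for about 70 hours, so the partners shared medium and had no contact. The labels do not say which libraries came from separate cultures, so p-values measure the spread between libraries, part of which may be technical.

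Neuropeptides are made as long precursors that enter the secretory pathway, where convertases cut them, carboxypeptidases trim the ends and, for many, an amidating enzyme finishes the peptide. They are stored in dense-core granules whose matrix is built by granins, and they act on G protein-coupled receptors of neighbouring cells. Cholecystokinin is best known as the gut hormone that empties the gallbladder and drives secretion by the exocrine pancreas, and as a transmitter in the brain. Sympathetic neurons of the SCG use noradrenaline with neuropeptide Y, and they are known to raise VIP, galanin and PACAP after their axons are cut, as happens when a ganglion is explanted.

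Several of these genes are textbook targets of cyclic AMP through the factor CREB, which binds the cyclic AMP response element (CRE). The 120 bases before the transcription start are shown for the 3 genes whose values the comparisons below turn on, from the RefSeq promoters of build GRCm38.p6, 5′ to 3′ on the strand of the gene. Capitals mark the letters TGACGTCA, the full CRE, or its half-site TGACG or, on the other strand, CGTCA.
Cck (chr9:121495695-121495814, minus strand): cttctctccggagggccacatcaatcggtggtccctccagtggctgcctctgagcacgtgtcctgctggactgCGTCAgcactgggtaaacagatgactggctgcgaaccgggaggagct
Sst (chr16:23890845-23890964, minus strand): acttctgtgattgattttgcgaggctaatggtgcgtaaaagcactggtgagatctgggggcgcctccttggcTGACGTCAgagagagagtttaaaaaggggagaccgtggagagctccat
Vip (chr10:5639098-5639217, plus strand): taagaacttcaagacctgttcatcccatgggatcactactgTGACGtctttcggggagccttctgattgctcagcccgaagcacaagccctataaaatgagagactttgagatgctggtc
The full element stood in Sst, with its first base 48 bases before the start. The half-site began 47 bases before the start of Cck and 79 bases before that of Vip. Of the 9 genes, 7 matched the promoter table by symbol (Penk and Grp did not), and all 7 held the half-site on either strand within 250 bases before a start, at 43 and 197 bases in Tac1, 65 in Calca, 166 in Nts, and 91 and 242 before the 2 listed starts of Adcyap1. The half-site was present in 17.8% of the 32851 promoter windows of that length and the full element, which contains it, in 1.55%. Counted by gene, with any listed start allowed, the shares were 19.8% and 1.77% of 27025 genes. These matches describe letters and were not measured as binding.

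Depth was similar throughout, from 31900689 to 41632381 reads on genes in the 14 libraries for which whole reads could be recovered. Marker genes of the cells that the labels name were abundant, though not all of them. In the PSC libraries the mean normalized count was 292370 for Col1a1, a collagen of fibroblasts, and 34746 for Acta2, the actin of activated stellate cells, while the insulin gene Ins1 was at 0 in every library. The fibroblast markers Fap and Lum were low there, with means of 26.7 and 14.3 in PSC and 40.4 and 17.5 in PSC+SCG. In the explants the mean was 21970 for Th and 36744 for Dbh, the enzymes of noradrenaline synthesis, and 13860 for the glial gene Sox10. Fibroblast RNA was abundant in the explants too, with means in SCG of 89424 for Col1a1 and 1967 for Fap. Explants were therefore mixed tissue, and in bulk RNA fewer cells of a type and less RNA per cell cannot be told apart. The PSC and the nerve libraries were normalized apart, and groups were tested only within a table.

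Cck had by far the highest level of the 9 precursors in PSCs, and it was higher in each PSC+SCG library than in the PSC library of the same number. Its normalized counts were 3413, 3888 and 6810 in PSC and 5340, 5638 and 11144 in PSC+SCG. Replicate 3 was the highest of both groups, and the groups overlapped because its PSC value lay above the other 2 coculture values. Within numbers the ratios were 1.56, 1.45 and 1.64. The means were 7374 ± 3268 in PSC+SCG and 4704 ± 1840 in PSC (SD, n = 3 each), a log2 fold change of 0.63 ± 0.33 (SE) that did not pass the test across all genes (limma on log2 of the normalized count + 1, adjusted p = 0.9999). Leaving out 1 library at a time gave 0.29 (without PSC+SCG replicate 3) to 0.93 (without PSC replicate 3). To pass, a gene needed a p of 0.05 or less after Benjamini-Hochberg adjustment and a log2 fold change beyond 0.5 either way, and here limma passed 0 of 21273 genes, with 408 at an unadjusted p under 0.05. On the reads of the 5 libraries that could be recovered, edgeR passed 0 genes and DESeq2 passed 1 higher and 1 lower.

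With the replicate number as a block, the fold change of Cck kept its size, its SE fell to 0.098 and it passed (limma, adjusted p = 0.00165). That fit called 0.461% of the genes tested and 1 of the 5 precursors tested, against 0% and 0 without the block. Without pair 1 the blocked fold change was 0.62 (limma, adjusted p = 0.0537), so the call ended, and without pair 2 or pair 3 it stood (limma, adjusted p = 0.00456 and 6.7e-04). On the reads of the 5 libraries that exclude PSC+SCG replicate 1, the blocked adjusted p was 0.0538 in edgeR and 0.0142 in DESeq2. The study listed Cck among the genes significantly higher in PSC+SCG, from DESeq2 with a term for batch on these same libraries. The choice of gene is therefore not independent of this difference. The 13 sympathetic neuron markers summed to 2483 to 3206 in PSC and 3289 to 3394 in PSC+SCG, most of it from Tubb3 and Hand2, which PSCs alone also expressed. The defining marker Th was at 0 in all 3 PSC+SCG libraries, and Dbh was at 0.989 to 3.19.

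**Figure D1:**
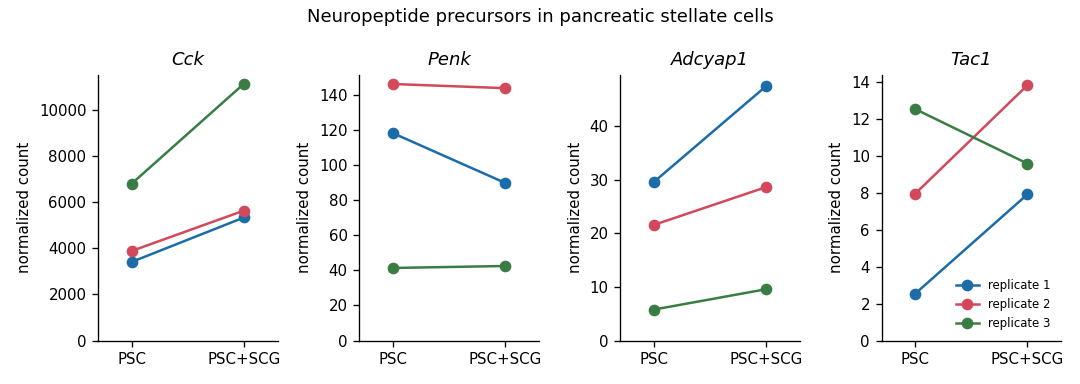
Normalized counts (linear axes from 0) of 4 precursors in PSCs alone and with SCG explants, with each point 1 library and lines joining libraries of the same replicate number. All 3 lines rise for Cck, from 3413, 3888 and 6810 to 5340, 5638 and 11144, whereas for Penk replicate 3 is low in both groups at 41.4 and 42.6.

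Level per kilobase of exon set Cck far above the other 8 genes in PSCs. Its mean was 1132 normalized counts per kilobase, and over the 6 libraries it ranked between 869 and 3084 among 21618 protein-coding genes. Penk followed with 27.9 per kilobase, then Adcyap1 with 4.92, Tac1 with 3.72 and Calca with 2.02. The ranges of Cck, Penk and Adcyap1 did not overlap one another (Penk 11.9 to 42.0 and Adcyap1 1.20 to 9.82 per kilobase), while those of Adcyap1, Tac1 and Calca did. Nts, Vip, Sst and Grp had means between 0.0734 and 0.245 per kilobase. With the length of the canonical transcript, a choice made after seeing the data, the first 3 kept their places, Calca moved above Tac1 and Vip above Nts.

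Penk, the precursor of the enkephalins, was at 118, 146 and 41.4 in PSC and 90.0, 144 and 42.6 in PSC+SCG. The libraries differed by number and hardly by group (log2 fold change -0.13 ± 0.56, limma, adjusted p = 0.9999). Adcyap1, which encodes PACAP, was at 29.6, 21.6 and 5.78 in PSC and at 47.5, 28.6 and 9.57 in PSC+SCG. It was higher in 3 of 3 numbered pairs, with a log2 fold change of 0.57 ± 0.73 and an SE of 0.38 with the block, and did not pass in either fit (limma, adjusted p = 0.9999 and 0.838). Replicate 3 was thus the lowest for Penk and Adcyap1 and the highest for Cck in both groups.

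Tac1, the precursor of substance P and neurokinin A, ranged from 2.54 to 13.8 over the 6 libraries, with a log2 fold change of 0.57 ± 0.60. Calca ranged from 0 to 8.90 and was at 0 in both replicates 3. The counts do not separate calcitonin from calcitonin gene-related peptide, which arise from this gene by splicing. Sst, Vip, Nts and Grp summed to less than 10 over the 6 libraries and were not tested. Vip was at 1.69, 1.14 and 5.78 in PSC and at 0 in all 3 PSC+SCG libraries, where a count of 0 allows up to 3 reads. None of the 5 precursors tested had groups that did not overlap, compared with 5.6% of all genes tested.

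The machinery around Cck in PSCs was uneven. The convertases of the regulated secretory pathway were near 0, Pcsk1 at 0.96 to 7.95 and Pcsk2 at 0 to 1.14 over the 6 libraries, as was the granin Chga at 0 to 1.69. The granins Scg5 and Scg2 were at 60.7 to 142 and 6.38 to 31.6. In contrast Furin, the convertase of the constitutive pathway, had a mean of 7841 ± 1199 in PSC+SCG and 6865 ± 265 in PSC. The protease gene Ctsl had the highest normalized counts of the processing enzymes, at 19209 ± 1321 and 18810 ± 1310, and Cpd was at 9429 ± 167 and 8994 ± 1006. The carboxypeptidase gene Cpe was at 17305 ± 1691 and 16481 ± 1285, the amidating enzyme Pam at 9524 ± 1180 and 8424 ± 829.9, and Tpst1 and Tpst2, which sulfate tyrosines as in cholecystokinin, were between 2752 and 3119 in the group means. Of 17 processing enzymes 16 were tested and 0 passed in either direction in limma with or without the block, with 0 at an unadjusted p under 0.05, and their median log2 fold change was 0.071 against -0.008 over all genes. Likewise 0 of the 4 granins tested of 7 passed, with medians of 0.475 and -0.008. Of 13 peptidases, the enzymes that degrade such peptides, 11 were tested and 0 passed.

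RNA for the receptors of cholecystokinin was not detected in PSCs. Cckar and Cckbr were at 0 in all 6 libraries, as was the opioid receptor Oprm1. Receptors for peptides of the VIP and calcitonin families were present: Vipr1 was at 105, 99.9 and 106 in PSC and 134, 111 and 152 in PSC+SCG, so its groups did not overlap (log2 fold change 0.34 ± 0.23, limma, adjusted p = 0.9999). The PACAP receptor Adcyap1r1 was at 124 ± 41.1 in PSC+SCG and 152 ± 52.6 in PSC, and Calcrl, part of the receptor for calcitonin gene-related peptide and adrenomedullin, at 635 ± 81.3 and 567.5 ± 65.0. Of its partners, Ramp3 was at 314 ± 340 and 277 ± 236, with replicates 3 highest at 705 and 548. The partners Ramp1 and Ramp2 were near 0, Ramp1 at 3.39 ± 3.05 and 6.24 ± 4.58 and Ramp2 at 2.99 ± 2.58 and 4.59 ± 0.963. The neurotensin-binding sorting receptor Sort1 was at 334 ± 113 and 386 ± 129, and Tacr2, a receptor for neurokinin A, at 10.2 ± 4.66 and 15.01 ± 6.84. Of 26 receptors 13 were tested and 0 passed. Among 48 other peptide precursors 16 were tested and 0 passed, with none at an unadjusted p under 0.05 and a median log2 fold change of 0.156. Per kilobase Apln reached 692 in its highest library, above the lowest of Cck at 640. Those with the highest normalized counts were Apln, which encodes the vessel-active peptide apelin (1719 ± 791 in PSC+SCG and 1515 ± 752 in PSC), Adm, which encodes adrenomedullin (755 ± 90.4 and 596 ± 204), Edn1, which encodes endothelin 1 (59.7 ± 46.9 and 48.0 ± 13.8), and Nmb, which encodes neuromedin B (37.8 ± 1.59 and 41.9 ± 12.1).

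In SCG explants the order of the precursors was different. Adcyap1 led with a mean of 79.0 normalized counts per kilobase over the 10 libraries, followed by Penk with 41.1, Vip with 11.6, Calca with 8.87, Sst with 5.54, Nts with 3.73, Grp with 1.05, Tac1 with 0.773 and Cck with 0.519. This order was the same with canonical transcripts, on which scale Penk and Vip stood at 52.1 and 51.5. Neighbours in the order overlapped in their ranges over libraries. Within libraries, per kilobase of exon, Adcyap1 was above Penk and Penk above Vip in 10 of 10, whereas each later step held in 5 to 8 of the 10. With canonical transcripts Vip reached 90.5 in its highest library and Penk at most 81.3, so Penk was not above Vip in every library. The steps were not counted on that scale. Adcyap1 normalized counts were 501, 213 and 731 in SCG, 461, 265 and 359 in SCG+MEF, and 381, 272, 354 and 278 in SCG+PSC. SCG replicates 2 and 3 were the lowest and the highest of all 10, and the same 2 libraries were the lowest and the highest for the summed sympathetic neuron markers, at 125740 and 283370. The part of neuron content in the values of Adcyap1 was not tested.

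**Figure D2:**
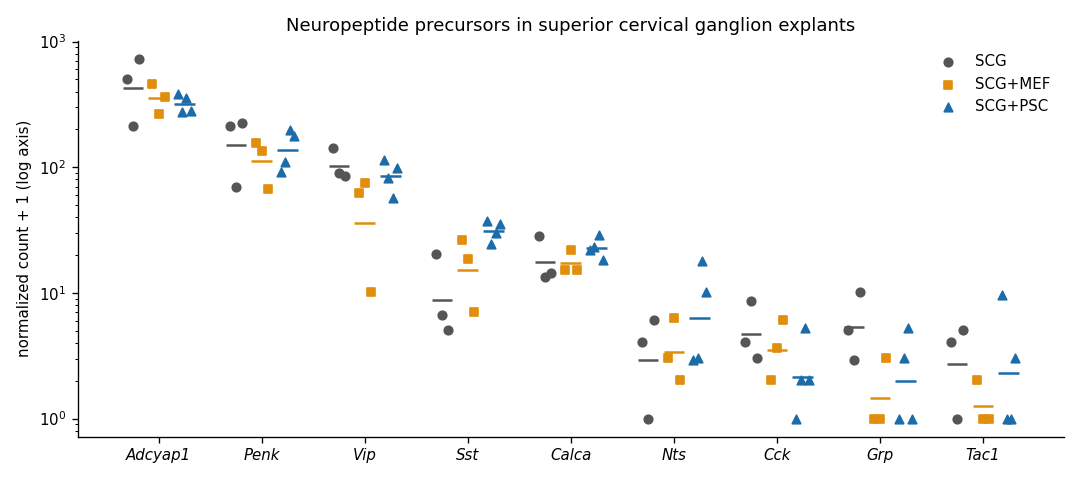
Normalized counts plus 1 (log axis) of the 9 precursors in SCG explants alone, with NIH 3T3 cells (SCG+MEF) and with PSCs (SCG+PSC), each point 1 library and each bar the mean on the log scale. Adcyap1, Penk and Vip lie highest, the 4 SCG+PSC libraries lie above the 3 SCG libraries for Sst, and Cck lies near the floor in all 10.

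Cck was nearly absent from the explants, including those grown with PSCs. It was at 3.04, 7.61 and 2.05 in SCG, 1.01, 2.63 and 5.07 in SCG+MEF, and 0, 1.01, 4.27 and 1.01 in SCG+PSC. These are at most 8 reads in a library with recovered reads, whereas PSC replicate 1 had 4036 Cck reads. RNA for its receptors was present in the explants at low and uneven levels. Cckbr, the receptor that also binds gastrin, was at 93.1, 39 and 29.7 in SCG, 66.9, 56.1 and 11.2 in SCG+MEF, and 88.3, 55.8, 76.9 and 61.5 in SCG+PSC. Cckar was at most 71.0 in 9 libraries and at 231 in SCG replicate 3. Neither passed in any of the 3 comparisons.

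Of the 9 precursors, Sst had the largest log2 fold change in SCG+PSC against SCG. It was at 19.2, 5.71 and 4.10 in SCG, 25.3, 17.5 and 6.08 in SCG+MEF, and 36.5, 23.3, 28.8 and 34.3 in SCG+PSC. All 4 SCG+PSC libraries lay above all 3 SCG libraries, and the SCG+MEF libraries spanned both. Against SCG the log2 fold change was 1.82 ± 0.54 with PSCs (limma, adjusted p = 0.794) and 0.77 ± 0.58 with NIH 3T3 cells (limma, adjusted p = 1), and SCG+PSC against SCG+MEF gave 1.05 ± 0.54 (limma, adjusted p = 0.9998). With the block the first was 1.77 ± 0.44 (limma, adjusted p = 0.0886), so it missed the threshold in both fits. The blocked value rests on SCG+PSC replicates 1 to 3, because replicate 4 has no partner of its number. The first comparison rests on as few as 4 reads in a library. Endothelial RNA was also higher in that comparison. All 6 endothelial markers were higher in SCG+PSC than in SCG at an unadjusted p under 0.05 in limma, a cut at which 5.05% of all genes differed. Their summed level was 1213 to 1935 in SCG, 1897 to 2167 in SCG+MEF and 1978 to 2881 in SCG+PSC. Sst and endothelial RNA were not compared library by library, and the part of endothelial RNA in the difference of Sst was not tested.

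Vip, a secretomotor and vasodilator peptide, was lowest in explants grown with NIH 3T3 cells. It was at 142, 89.4 and 84.0 in SCG, 60.8, 74.5 and 9.12 in SCG+MEF, and 114, 81.1, 55.5 and 96.8 in SCG+PSC. The SCG+MEF libraries all lay below the SCG libraries, and SCG+MEF replicate 3 lay far below the rest. The log2 fold change against SCG was -1.51 ± 0.62 in SCG+MEF (limma, adjusted p = 1), and -0.59 without that library. It was -0.28 ± 0.58 in SCG+PSC (limma, adjusted p = 0.9999). The direct comparison of the cocultures, SCG+PSC against SCG+MEF, gave 1.23 ± 0.58 (limma, adjusted p = 0.9998), and 0.32 without SCG+MEF replicate 3. With the block none of the 3 passed (limma, adjusted p = 0.322, 0.847 and 0.285).

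Penk varied between libraries more than between groups. It was at 213, 68.5 and 223 in SCG, 155, 133 and 65.9 in SCG+MEF, and 91.1, 109, 198 and 177 in SCG+PSC, with log2 fold changes against SCG of -0.42 ± 0.48 and -0.12 ± 0.45. Calca lay between 12.4 and 27.8 in all 10 libraries. Its log2 fold change in SCG+PSC was 0.37 ± 0.35 against SCG and 0.41 ± 0.35 against SCG+MEF. Nts, whose peptide lowers blood pressure and acts on gut motility, reached 17.1 and 9.08 in SCG+PSC replicates 3 and 4 and at most 5.26 in the other 8 libraries. Grp, the mammalian bombesin, was at 4.05, 1.90 and 9.22 in SCG, 0, 0 and 2.03 in SCG+MEF, and 0, 2.03, 4.27 and 0 in SCG+PSC, a log2 fold change of -1.88 ± 0.81 in SCG+MEF against SCG (limma, adjusted p = 1). Tac1 did not exceed 8.63 in any explant library. None of these 5 genes passed in any comparison.

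**Figure D3:**
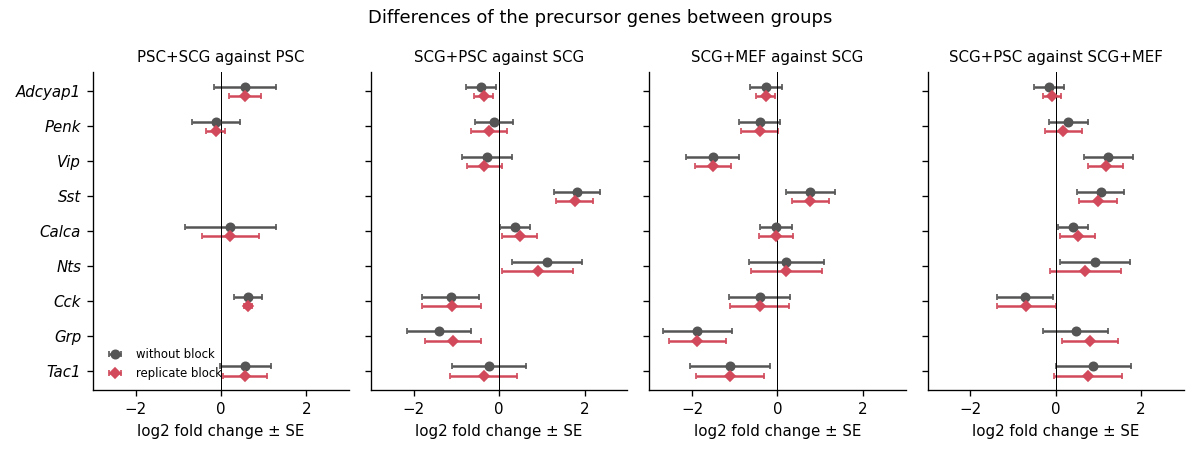
Log2 fold changes with their SE for each precursor tested in the 4 comparisons, without a block (grey circles) and with the replicate number as a block (red diamonds); Sst, Vip, Nts and Grp were not tested in PSCs. The block narrows the bar of Cck in PSC+SCG against PSC from 0.33 to 0.098. The bars of Sst in SCG+PSC against SCG and of Vip in SCG+MEF against SCG lie away from 0 in both fits. Neither passed, and other bars, such as that of Grp in SCG+MEF against SCG, also lie away from 0 without the block.

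Across the explants 0 of the 9 precursors passed in any of the 3 comparisons, in limma, edgeR or DESeq2, with or without the block. At an unadjusted p under 0.05, limma gave 1 in SCG+PSC against SCG (Sst), 2 in SCG+MEF against SCG (Vip and Grp) and 0 in SCG+PSC against SCG+MEF. At that cut stood 5.05%, 3.37% and 4.08% of all genes. Limma called 0.0336%, 0.0126% and 0% of 23779 genes in these comparisons, and 1.31%, 0.16% and 0.786% with the block. Groups did not overlap for 1 of the 9, 1 of the 9 and 0 of the 9 precursors, compared with 5.16%, 6.62% and 4.77% of all genes. The median log2 fold change of the 9 was -0.239, -0.417 and 0.467, against 0, 0.018 and -0.011 over all genes. The comparisons of SCG+PSC and SCG+MEF against SCG share the 3 SCG libraries.

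Receptors of the VIP and somatostatin families were measured in the same explants. Vipr2, a receptor for VIP and PACAP, was at 131, 155 and 160 in SCG, 201, 176 and 227 in SCG+MEF, and 122, 89.2, 69.4 and 60.5 in SCG+PSC. The 3 groups did not overlap, with SCG+MEF above SCG and SCG+PSC below it. Of 22 receptors tested, 5 in SCG+MEF did not overlap SCG, all higher, compared with 6.62% of all genes. In SCG+PSC against SCG, 1 was higher and 1 lower without overlap, compared with 5.16% of all genes. SCG+PSC against SCG+MEF gave a log2 fold change of -1.27 ± 0.24 (limma, adjusted p = 0.675), which passed with the block at -1.13 ± 0.22 (limma, adjusted p = 0.0385). That blocked fit called 0.786% of all genes. The blocked value rests on SCG+PSC replicates 1 to 3, because replicate 4 has no partner of its number. Sstr2, a somatostatin receptor, was at 186, 101 and 149 in SCG, 199, 333 and 447 in SCG+MEF, and 235, 243, 409 and 360 in SCG+PSC. Both cocultures lay above SCG, with log2 fold changes of 1.13 ± 0.33 and 1.10 ± 0.31 (limma, adjusted p = 1 and 0.723). In DESeq2 with the block both passed (adjusted p = 0.0022 and 0.0054), and in the other alternatives neither did. SCG+PSC against SCG+MEF gave -0.03 ± 0.31.

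**Figure D4:**
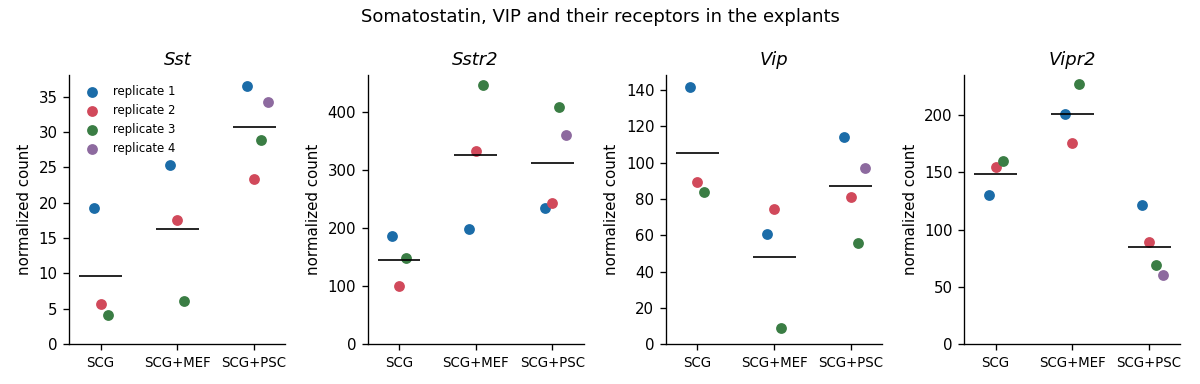
Normalized counts (linear axes from 0) of Sst, Sstr2, Vip and Vipr2 in the SCG explants, each point 1 library coloured by its replicate number and each bar the mean of the group. Sst is highest in SCG+PSC at 23.3 to 36.5, Sstr2 is higher in both cocultures than in SCG, and for Vipr2 the 3 groups do not overlap.

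The PACAP receptor Adcyap1r1 had the highest normalized counts of the 26 receptors in explants, at 4006 ± 1867 in SCG, 5893 ± 1604 in SCG+MEF and 4692 ± 1254 in SCG+PSC, and Sort1 followed at 3682 ± 497, 3831 ± 680 and 3818 ± 202. Calcrl was at 343 ± 67.0, 364 ± 67.7 and 401 ± 59.8, and its partner Ramp1 at 483 ± 380, 435 ± 223 and 288 ± 91.6. Ramp2, Ramp3, Tacr1 (the substance P receptor), Vipr1 and Ntsr2 (a neurotensin receptor) had means between 9.97 and 92.5 in every group, and the somatostatin receptor Sstr1 had means of 7.28 to 14.1. Of the 22 receptors tested, limma passed 0 in each comparison without the block, with 2 at an unadjusted p under 0.05 in each (5.05%, 3.37% and 4.08% of all genes). With the block it passed Vipr2 in SCG+PSC against SCG+MEF, where it called 0.786% of all genes.

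Among the 48 other precursors 29 were tested in the explants and 0 passed in any comparison with or without the block. Edn3, which encodes endothelin 3, a peptide of neural crest development, was at 663 ± 271 in SCG, 920 ± 208 in SCG+MEF and 1357 ± 345 in SCG+PSC (SCG+PSC against SCG 1.09 ± 0.29, limma, adjusted p = 0.664). Nppc, which encodes C-type natriuretic peptide, had larger log2 fold changes against SCG than Sst. It was at 11.1, 5.71 and 3.07 in SCG, 35.5, 28.9 and 18.2 in SCG+MEF, and 50.8, 11.2, 45.9 and 24.2 in SCG+PSC. Both cocultures lay above SCG, by 1.99 ± 0.58 in SCG+MEF and 2.09 ± 0.55 in SCG+PSC (limma, adjusted p = 1 and 0.664, and 0.243 and 0.0662 with the block). The gap to SCG+PSC was minimal, from 11.14 in SCG replicate 1 to 11.15 in SCG+PSC replicate 2. Of the 29 precursors, 2 in SCG+MEF and 3 in SCG+PSC did not overlap SCG, all higher, compared with 6.62% and 5.16% of all genes. Ucn2, of the corticotropin-releasing hormone family, was at 893 ± 443, 810 ± 353 and 963 ± 170. Cartpt, a precursor found in many autonomic neurons, was at 770 ± 332, 812 ± 278 and 1039 ± 224. Npy, the classical cotransmitter of sympathetic neurons, was at 673 ± 352, 819 ± 312 and 785 ± 250. At an unadjusted p under 0.05 limma gave 2, 2 and 1 of the 29, compared with 5.05%, 3.37% and 4.08% of all genes, and their medians were 0.193, 0.104 and 0.128.

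Granins and the convertases of the regulated pathway were readily detected in the explants, which were normalized apart from the PSCs. Chgb, a granin, was at 7387 ± 2242 in SCG, 7950 ± 1462 in SCG+MEF and 8271 ± 3074 in SCG+PSC. The convertases Pcsk1 and Pcsk2 were at 483 ± 285, 484 ± 265 and 412 ± 119 and at 734 ± 364, 690 ± 170 and 755 ± 308. All 7 granins and all 17 processing enzymes were tested and 0 passed without the block. Cpe was at 34094 ± 1329, 40266 ± 4223 and 30521 ± 2446, and its SCG+PSC libraries lay below all SCG+MEF libraries. That difference, -0.40 ± 0.11, had an adjusted p of 0.0358 with the block in limma and stayed below 0.5 in size, so it did not pass. All 13 peptidases were tested and 0 passed.

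The genes whose levels most resembled those of the abundant precursors were looked up over the libraries of each table, as a description. In PSCs Cck was followed over 6 libraries most closely by Itgal (r = 0.998, at a mean of only 2.36 normalized counts), Lig4 (r = 0.991) and Hoxc13 (r = 0.989). In explants, over 10 libraries, Adcyap1 was followed by Klc2 (r = 0.980), Mea1 (r = 0.967) and Slc25a39 (r = 0.965). Penk was followed there by Tmsb10 (r = 0.948), Septin1 (r = 0.902) and Slpi (r = 0.899, at a mean of only 1.72 normalized counts). The libraries of a table share their normalization and partly their replicate number.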

How the data were processed

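Bulk RNA-seq of 6 PSC and 10 nerve libraries was used. The authors made stranded libraries, aligned them with STAR 2.7.10b to GRCm39, counted reads on GENCODE M33 basic genes and divided each library by its DESeq2 1.38.3 size factor (R 4.2.2 per the labels). The deposited signal is therefore normalized counts, one table for PSC and one for nerve libraries. Values were whole multiples of 1 step (tolerance 0.1) in 100% of cases, and dividing by it gave reads, accepted for 14 of 16 libraries. The allowance of up to 3 reads at a count of 0 covers counting error only. Each value after ± (SD or SE) comes from the spread between libraries.

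Log2(normalized count + 1) of genes summing to at least 10 was tested with limma 3.58.1 (trend) in R 4.3.3, with Benjamini-Hochberg adjustment over all genes tested. All 10 nerve libraries shared 1 fit. With the replicate block, SCG+PSC replicate 4 had no other library of its number and added nothing to a blocked comparison. Blocked explant results of SCG+PSC therefore rest on its replicates 1 to 3. edgeR 4.0.16 and DESeq2 1.42.0 were alternatives. The fit was tested on simulated counts, with changes only in genes above a minimum mean and no effect shared by replicate number. That test does not cover weakly expressed precursors or libraries that deviate together. The study's own test had a term for batch, and no library is tied to a batch in the sources used here, so batch was not fitted.

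Same-numbered libraries deviated together. Correlations of deviations from the group means were 0.303 to 0.548 over 3 pairs of PSC libraries. Over 9 pairs of nerve libraries they were 0.12 to 0.509. On this evidence from the data, and not from a stated design, the numbers were taken to pair the libraries in the blocked fits. The main fit had no such term, so its p-values ignore this pairing.

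All 9 precursors were named in each comparison. From the other lists (48 further precursors, 7 granins, 17 processing enzymes, 26 receptors, 13 peptidases) up to 4 genes each were named, those past the threshold and then the most abundant, plus receptors with a mean of at least 10. Furin, Pcsk1, Pcsk2, Tpst1, Tpst2, Chga, Nppc and the receptors at 0 were named after their values were seen. Fold changes on this log scale understate changes of low genes. The members and lists were chosen with earlier results of these data known. Lengths came from GENCODE M39 (GRCm39), in which no exon base of the 9 genes lay in another gene of the same strand, and promoters from RefSeq (GRCm38.p6).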

Additional observations from a re-analysis of the deposited data

Results flagged for a closer look

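Vipr2 was picked out because the SCG+PSC libraries all lay below and the SCG+MEF libraries all above the SCG libraries. That choice fixed the direction of the comparison between the cocultures and kept them from overlapping. The p-values of that comparison come from the same values and are not independent of the choice. The direct test of the cocultures, SCG+PSC against SCG+MEF, gave a log2 fold change of -1.27 (limma, adjusted p = 0.675, and 0.0385 with the replicate block). Over 15 alternatives the value ranged from -1.28 to -1.10 and the adjusted p from 7.1e-04 to 1, and 4 alternatives were at or under 0.05.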

How the results depend on the processing

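In PSC+SCG against PSC 0 precursors passed, and the number became 1 (Cck) with the replicate block, with the block without pair 2 or pair 3, and in DESeq2 with the block. The alternatives without a pair, the count models with fewer libraries and the canonical lengths were chosen after seeing the data. In the explants that number was 0 under every alternative run. With the block, genes passing among all genes rose from 0 to 98 in PSC+SCG against PSC, from 8 to 312 in SCG+PSC against SCG, from 3 to 38 in SCG+MEF against SCG and from 0 to 187 in SCG+PSC against SCG+MEF. Without the block, DESeq2 passed 54 higher and 7 lower, 19 and 3, and 14 and 4 in the 3 explant comparisons, and edgeR 3, 3 and 0. Directions turned for weakly expressed or scattered genes, and the cause was not tested. In PSCs Penk became 0.0072 with the block without pair 1 and 0.0054 in DESeq2 with the block, and Calca became -0.33 in edgeR and -0.35 in DESeq2. In SCG+PSC against SCG, Tac1 became 0.17 with replicates 1, 2 and 4, 0.31 in edgeR and 0.29 in DESeq2. In SCG+MEF against SCG, Calca became 0.0080 with quantile normalization. Leaving out 1 library at a time gave, in PSCs, -0.67 to 0.34 for Penk, -0.086 to 1.18 for Adcyap1 and -0.68 to 1.24 for Calca. In SCG+PSC against SCG it gave -0.67 to 0.18 for Penk and -0.97 to 0.21 for Tac1. In SCG+MEF against SCG it gave -0.81 to 0.012 for Cck, -0.78 to 0.11 for Adcyap1, -0.56 to 0.74 for Nts and -0.23 to 0.31 for Calca. In SCG+PSC against SCG+MEF it gave -0.072 to 0.54 for Penk, -0.36 to 0.042 for Adcyap1 and -0.35 to 0.24 for Sstr2. Genes with under 10 reads per library, such as Cck and Grp in explants, are limited by counting error.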
